A study of Mus musculus with 9 samples.

Results

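The nuclear-encoded subunits of the mitochondrial respiratory chain and ATP synthase were followed in RNA of the mouse small intestine. Members were the genes whose symbol begins with Nduf followed by a, b, c, s or v, with Sdha to Sdhd, with Uqcr, with Cox4 to Cox8 or with Atp5, taken from probe sets annotated to exactly 1 symbol. The rule found 90 genes on 179 probe sets, out of 18193 genes named by 1 symbol. The rule itself uses no measured value, but it was set with earlier results of these data known. Of these, 44 belong to complex I, 4 to complex II, 8 to complex III, 17 to complex IV and 17 to complex V. After the filter on dim probe sets, 87 genes (169 probe sets) were tested, 43, 4, 8, 15 and 17 in the same order. The other 3, Ndufb4, Cox7b2 and Cox8b, stayed between 4.03 and 5.10 on every array. The symbol rule also takes in 8 complex I assembly factors (Ndufaf genes) and Cox7a2l, a supercomplex factor, so 78 of the tested genes are subunits in the strict sense.

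Each group had 3 arrays from 3 male mice aged 6 to 8 weeks. Control jejunum and control ileum came from separate Gata4loxP/+VilCre mice, and mutant jejunum from Gata4loxP/-VilCre mice. The villin-driven Cre acts in the intestinal epithelium, so muscle, connective tissue and immune cells keep their floxed allele. By the genotypes, the other allele is minus in the mutants and plus in the controls, in those cells too. The controls carry Cre and a floxed allele as well. The jejunal site lay 10 cm below the pyloric sphincter and the ileal site 1 cm above the cecum. Levels are log2(intensity + 16) after quantile normalization, so a probe set without signal reads about 4, and differences are log2 differences of group means.

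The respiratory chain passes electrons from NADH (complex I) and succinate (complex II) through ubiquinone, complex III, cytochrome c and complex IV to oxygen, and complex V makes ATP from the resulting proton gradient. Absorptive enterocytes use this ATP to drive the sodium pump behind nutrient uptake. Nuclear transcription factors of the NRF and ETS families and the coactivators of the PGC-1 family are known regulators of these genes.

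Before the members, the arrays as a whole were checked. The 2 probe sets of Gata4 stood at 9.53 ± 0.04 and 7.57 ± 0.43 (SD, n = 3) in control jejunum and at 9.50 ± 0.11 and 8.23 ± 0.29 in the tissue labelled mutant jejunum. Neither was called between the mutant and control groups (adjusted p = 0.959 and 0.195). The sources used here do not place them against the deleted exons, so they check nothing about the deletion. In control ileum they stood at 5.38 ± 0.23 and 4.58 ± 0.32. All 9 epithelial markers were measured, and their summed linear level ranged from 55647 to 57944 over the control jejunum arrays, from 53749 to 61231 over the mutant arrays and from 55114 to 59197 over the ileum arrays. The deposited values of control ileum were dimmer, with a mean after trimming 2% at each end of 0.674 of that in the jejunum groups, so brightness and segment cannot be told apart. The hybridization controls of the arrays, which do not come from the tissue, were dimmer there too. Before normalization their mean log2(intensity + 16) was 9.70 to 10.03 on the ileum arrays and 10.51 to 10.82 on the jejunum arrays. The cause of the dimmer values was not tested. In bulk tissue, fewer cells of a type and less RNA per cell cannot be told apart either.

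Promoter windows of 5 genes are shown as examples, and no result rests on them. They are Cox7a1, the gene with the largest fall in ileum by its brightest probe set, and the ubiquitous paralog Cox7a2. The others are the complex II genes Sdhb and Sdhd, and Uqcrc1 of complex III. Each window runs from 250 bases before the annotated start to 50 bases after it (RefSeq, GRCm38.p6), 5′ to 3′ on the gene's strand. Capitals mark matches, on either strand, to 5 motifs. These are GCGCATGC for NRF1, AAGATGGC for YY1, CCGGAAG for the ETS family, and for the zinc finger family of Gata4 the hexamer AGATAA and a second hexamer, TGATAA. Matches to the last pair are called GATA matches.
Cox7a1 (chr7:30183921-30184220, plus strand): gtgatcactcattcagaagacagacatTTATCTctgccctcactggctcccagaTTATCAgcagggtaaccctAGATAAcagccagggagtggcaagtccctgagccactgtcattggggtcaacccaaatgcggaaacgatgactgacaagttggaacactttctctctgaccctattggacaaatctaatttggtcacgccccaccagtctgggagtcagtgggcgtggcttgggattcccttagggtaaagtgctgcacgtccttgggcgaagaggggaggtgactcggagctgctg
Cox7a2 (chr9:79759804-79760103, minus strand): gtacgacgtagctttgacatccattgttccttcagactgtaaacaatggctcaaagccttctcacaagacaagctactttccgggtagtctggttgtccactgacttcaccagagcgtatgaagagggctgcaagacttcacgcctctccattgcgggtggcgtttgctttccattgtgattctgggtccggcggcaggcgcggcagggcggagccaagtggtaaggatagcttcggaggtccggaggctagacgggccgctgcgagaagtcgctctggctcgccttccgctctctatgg
Sdhb (chr4:140961021-140961320, plus strand): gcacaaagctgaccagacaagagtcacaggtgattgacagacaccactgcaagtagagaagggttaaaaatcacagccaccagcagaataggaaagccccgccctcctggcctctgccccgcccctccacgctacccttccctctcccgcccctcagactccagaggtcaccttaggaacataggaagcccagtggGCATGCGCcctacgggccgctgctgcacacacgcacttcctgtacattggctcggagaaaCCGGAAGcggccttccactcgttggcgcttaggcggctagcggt
Sdhd (chr9:50603800-50604099, minus strand): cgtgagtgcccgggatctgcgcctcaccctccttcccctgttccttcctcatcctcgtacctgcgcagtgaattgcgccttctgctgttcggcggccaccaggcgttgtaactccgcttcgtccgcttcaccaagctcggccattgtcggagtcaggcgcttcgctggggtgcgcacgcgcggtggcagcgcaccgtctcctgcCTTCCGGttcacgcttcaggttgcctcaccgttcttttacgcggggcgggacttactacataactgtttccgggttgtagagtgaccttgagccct
Uqcrc1 (chr9:108936398-108936697, plus strand): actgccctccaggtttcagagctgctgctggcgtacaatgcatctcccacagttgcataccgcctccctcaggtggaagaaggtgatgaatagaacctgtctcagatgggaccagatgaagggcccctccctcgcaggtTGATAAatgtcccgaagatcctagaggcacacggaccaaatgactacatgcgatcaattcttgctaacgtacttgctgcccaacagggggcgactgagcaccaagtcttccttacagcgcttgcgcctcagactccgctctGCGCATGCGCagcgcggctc
The Cox7a1 window held 3 GATA matches, a number reached by 0.466% of 21263 windows of protein-coding genes, and no match to the other motifs. The Cox7a2 window held none of the motifs, nor did those of Ndufb3, Ndufa5 and Ndufa1, which fell in ileum and are not shown. Sdhb held 1 NRF1 and 1 ETS match, Sdhd 1 ETS match, and Uqcrc1 held 1 GATA match and an overlapping pair of NRF1 matches that together form a palindrome. Over the 76 windows found for 71 tested members, 14.5% held an NRF1 match (3.52% of all windows), 25% an ETS match (11.6%), 13.2% a YY1 match (3.05%) and 17.1% a GATA match (15.9%). Among the 16 windows of genes that fell in ileum, 3 held an NRF1 match (18.8%) and 6 an ETS match (37.5%). A YY1 match was held by 2 of them (12.5%) and a GATA match by 5 (31.2%). Among the 60 windows of members not called in ileum the shares were 13.3%, 21.7%, 13.3% and 13.3% in the same order. Whether these shares differ was not tested. These are matches of letters, not measured binding sites.

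The comparison of control ileum with control jejunum asks how the chain differs between the distal and the proximal end of the small intestine. Of 87 members, 17 fell in ileum and 0 rose (adjusted p under 0.05, limma, Benjamini-Hochberg over 29307 probe sets). Over all probe sets 7.86% fell and 8.36% rose, and with 1 probe set per gene 9.12% fell and 8.79% rose. At an unadjusted p under 0.05, 33 members were lower and 0 higher. The share over all genes was not taken at that threshold, so this count is given as a value only. Most members are bright: of the 72 with a mean level of at least 10, 17 fell (23.6%), beside 17.7% falls and 16.2% rises among all genes that bright, so the share of falls was not far from the background of bright genes. Values below 0 were found for 72 of the 87 members (47.4% of all genes) and for 67 of the 72 bright ones (46% of all genes that bright). The median difference over the members was -0.18, a ratio of 0.883, beside 0.03 over all genes tested. The ileum arrays lay wholly below the control jejunum arrays for 50 members and wholly above for 0, beside 18.9% and 21.2% of all genes. Of the 72 bright members 49 lay wholly below, beside 27.4% of all genes that bright.

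**Figure D1:**
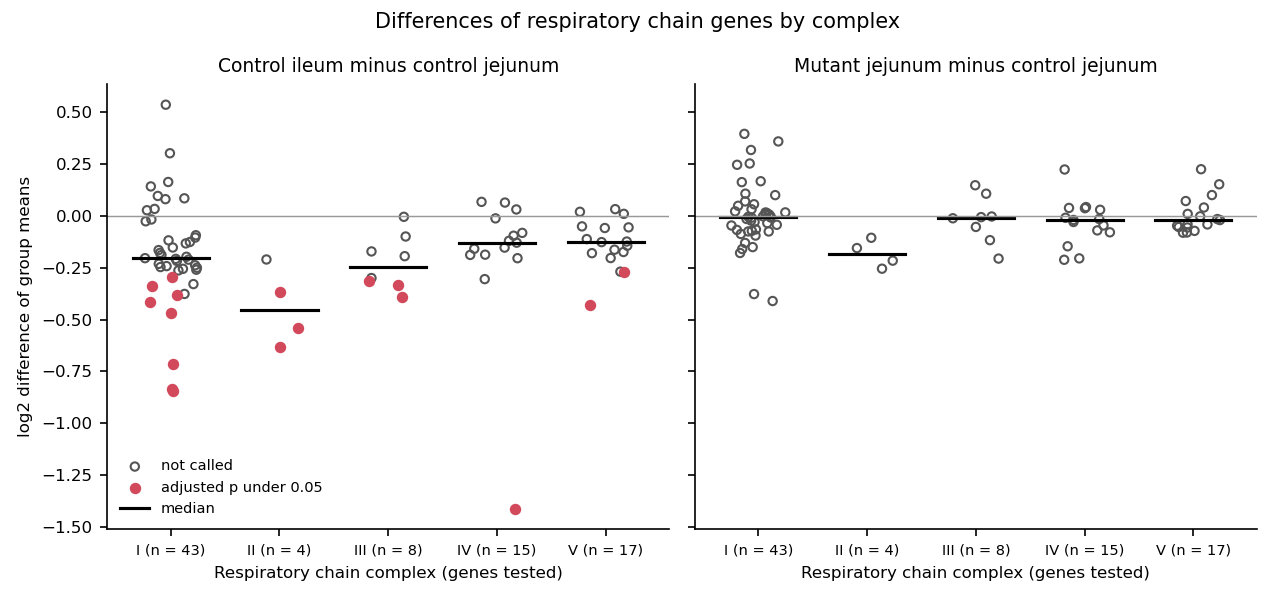
Each point is 1 respiratory chain gene, plotted as the log2 difference of group means against its complex; filled points passed the test, open points did not, and lines are medians. On the left 17 genes lie in the filled class, all below 0, from -0.27 (Atp5h) to -1.41 (Cox7a1); on the right no gene passed.

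The size of this difference followed the scaling between arrays. With trimmed mean scaling the median was -0.13, 61 of 87 members lay below 0 and 13 fell, and complexes IV and V had medians of -0.02 and -0.01. With arrays centred on their medians it was -0.31 and 26 fell, and with no scaling -0.67 and 75 fell, where all features had a median of -0.40. Each of these member medians includes any shift that the scaling left in all features. The count was 9 without control jejunum 1, 8 without control jejunum 2, 10 without control jejunum 3, 9 without control ileum 2, 10 with no filter and 8 with no intensity trend. The 8 genes that kept the call under each of 22 settings, including each array left out in turn, were Cox7a1, Ndufb3, Ndufa5, Sdhd, Sdhb, Ndufa1, Atp5md and Ndufb9. Among the 22, the restriction to strict subunits and the omission of probe sets with the suffix _x_at or _s_at reuse the main fit. They only choose among members or probe sets and kept all 17 calls, so they add little to this count. These 8 are described from complex to complex below beside the rest.

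Among complex I genes, 8 of 43 fell in ileum (median -0.20), and each of the 8 was an accessory subunit. Accessory subunits surround the catalytic core and are needed for its assembly or stability; 8 of 29 fell (median -0.24). Of the 6 core subunits, which carry the flavin and the iron-sulfur clusters, 0 fell (median -0.17), and of the 8 assembly factors 0 fell (median 0.08). This split rests on the brightest probe set of each gene: 3 of the core genes, Ndufv1, Ndufv2 and Ndufs7, had a dimmer probe set that fell. Whether the accessory and core groups differ was not tested.

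Ndufb3, an accessory subunit of the membrane arm, stood at 11.16, 11.14 and 11.12 in control jejunum 1 to 3, at 10.88, 10.78 and 10.52 in the mutant and at 10.62, 10.37 and 9.89 in ileum. The 3 control jejunum arrays lay above the other 6. It fell in ileum by 0.85 (SE 0.17, adjusted p = 0.00636). Ndufa5, an accessory subunit of the matrix arm, stood at 11.56, 11.67 and 11.49 in control jejunum, at 11.28, 11.20 and 11.11 in the mutant and at 10.81, 10.79 and 10.97 in ileum. The 3 groups did not overlap, with the mutant arrays between the others, and the gene fell in ileum by 0.72 (SE 0.10, adjusted p = 0.000718).

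Ndufa1, a small membrane-arm subunit encoded on the X chromosome, stood at 12.43, 12.46 and 12.44 in control jejunum, 12.30, 12.37 and 12.12 in the mutant and 11.99, 12.00 and 11.93 in ileum. Here too the mutant arrays lay between those of the control segments, and the fall in ileum was -0.47 (SE 0.09, adjusted p = 0.00399). Ndufb9, another membrane-arm subunit, read 12.36, 12.39 and 12.35 in control jejunum, 12.23, 12.44 and 12.32 in the mutant and 11.98, 11.89 and 11.98 in ileum. Its mutant arrays overlapped control jejunum and lay above every ileum array, and it fell in ileum by 0.42 (SE 0.08, adjusted p = 0.00672).

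Ndufs5, another accessory subunit, fell by 0.84 in ileum (SE 0.26, adjusted p = 0.0488), but its ileum arrays stood at 10.44, 9.19 and 10.37 against 10.79, 10.88 and 10.84 in control jejunum. The ileum 2 array was far below the other ileum arrays, and without it the difference was -0.44 (adjusted p = 0.0288). Leaving out any control jejunum or mutant array ended the call (adjusted p = 0.0513 to 0.128). Ndufc1 (-0.38), Ndufb6 (-0.34) and Ndufb8 (-0.30) fell by less, and are named, as are Sdhc, Uqcrc1, Uqcr11 and Atp5h below, after their values were seen. Of these 3, Ndufb6 and Ndufb8 lost the call under 10 and 8 of the 22 settings, without each control jejunum array among them, and Ndufc1 under 3, among them without control jejunum 2 or control ileum 2. The other, dimmer probe set of Ndufb8 gave 0.21 and was not called.

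The remaining complex I subunits gave values from -0.38 (Ndufa7) to 0.53 (Ndufa4l2) in ileum. Ndufs4, an accessory subunit at the NADH end, gave -0.03, Ndufs8, an iron-sulfur core subunit, 0.03, and Ndufs1, the largest core subunit, -0.22 (adjusted p = 0.216). Ndufa4, now regarded as a complex IV subunit, gave -0.21 (adjusted p = 0.308), and its hypoxia-linked paralog Ndufa4l2, near background at 4.85, 4.94 and 5.97 in control jejunum and 5.71, 5.62 and 6.03 in ileum, gave 0.53 (adjusted p = 0.350). Ndufb1 is read by 1 dim probe set (6.61, 6.18 and 6.51 in control jejunum), so its value rests on signal close to background.

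Complex II, succinate dehydrogenase, had 3 of its 4 genes fall in ileum, with a median of -0.46. It also sits in the tricarboxylic acid cycle and is encoded wholly in the nucleus. Sdhd, a membrane anchor, stood at 11.92, 11.70 and 11.69 in control jejunum, 11.61, 11.60 and 11.34 in mutant jejunum and 11.20, 11.00 and 11.21 in ileum. The 3 groups did not overlap. It fell by 0.63 in ileum (SE 0.11, adjusted p = 0.00367), and its other, dimmer probe set by 0.97 (adjusted p = 0.00474).

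Sdhb, the iron-sulfur subunit, stood at 12.57, 12.42 and 12.40 in control jejunum, 12.35, 12.55 and 12.17 in mutant jejunum and 11.99, 11.83 and 11.94 in ileum. Mutant jejunum 2 lay within the control jejunum range and the other mutant arrays below it, all above every ileum array; the gene fell in ileum by 0.54 (SE 0.11, adjusted p = 0.00631). Sdhc, the other anchor, stood at 11.81, 11.60 and 11.60 against 11.28, 11.25 and 11.38 in ileum and fell by 0.37 (adjusted p = 0.0419). That call was lost under 10 of 22 settings, among them without any 1 control array or without mutant jejunum 2. The other, dimmer probe set of Sdhc gave 0.12 and was not called. Sdha, the flavoprotein that oxidizes succinate, stood at 11.74, 11.75 and 11.64 against 11.47, 11.42 and 11.61, a difference of -0.21 that did not pass (adjusted p = 0.135). A dimmer Sdha probe set fell by 0.65 (adjusted p = 0.000781), so the probe sets of this gene differ in call.

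**Figure D2:**
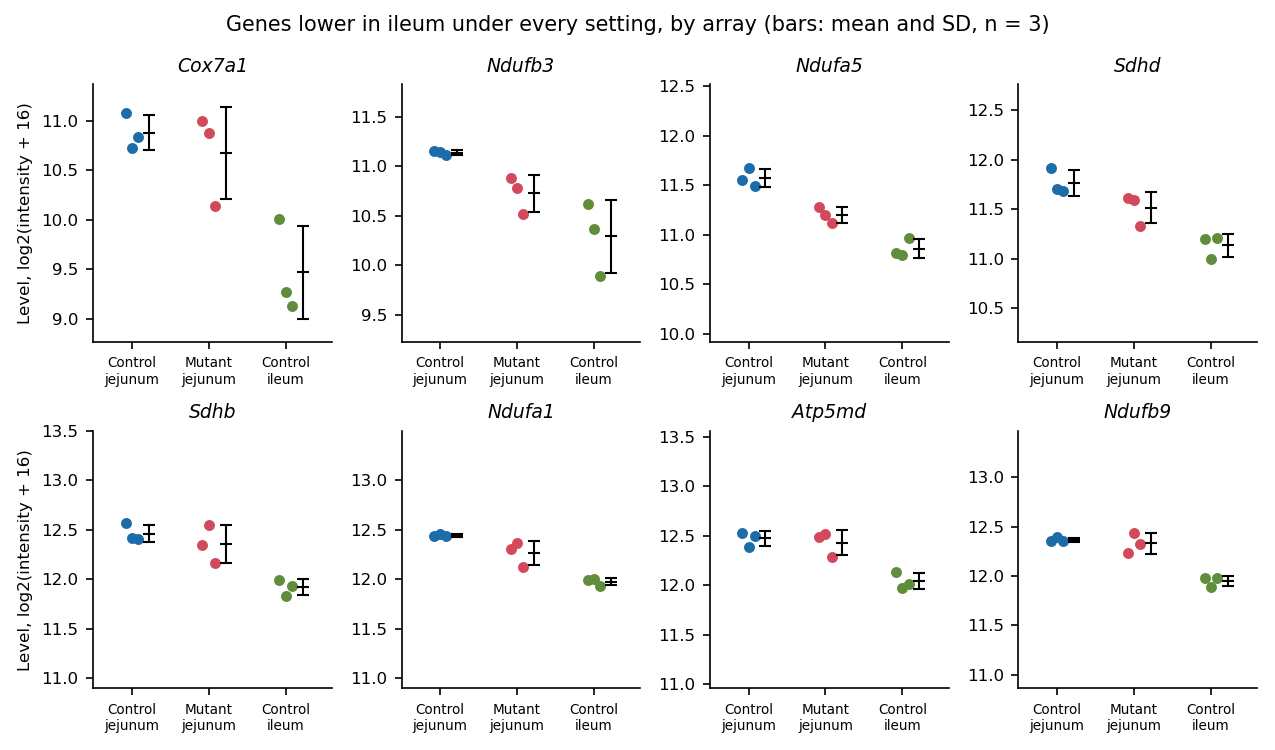
Levels, log2(intensity + 16), of the 8 genes that fell in ileum under all 22 settings; each point is 1 array, bars are mean and SD (n = 3), and each panel spans the same range of log2 units around its own centre. In every panel the 3 ileum arrays lie below the 3 control jejunum arrays; the mutant arrays lie between them for Ndufa5, Sdhd and Ndufa1 and overlap control jejunum for Cox7a1, Sdhb, Atp5md and Ndufb9.

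Complex III, ubiquinol-cytochrome c reductase, had 3 of 8 genes fall (median -0.25). Uqcr10, a small accessory subunit, stood at 11.53, 11.27 and 11.27 in control jejunum, 11.29, 11.41 and 11.36 in mutant jejunum and 11.07, 10.81 and 11.01 in ileum, and fell by 0.39 (SE 0.11, adjusted p = 0.0328). The mutant arrays lay within the control jejunum range. Without control jejunum 1, 2 or 3 or control ileum 2 or 3 the call was lost (adjusted p = 0.0574 to 0.121), and its 2 other, dim probe sets gave 1.40 and 0.98, neither called. Uqcrc1, a core protein facing the matrix, fell by 0.33 (adjusted p = 0.0232) and Uqcr11 by 0.32 (adjusted p = 0.0327); these calls were lost under 5 and 9 settings, without control jejunum 1 or 2 or control ileum 2 among them. Uqcrc2, the partner core protein, gave -0.01, Uqcrfs1, the Rieske iron-sulfur protein, -0.17, and Uqcrb, which binds near the quinone site, -0.10.

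In complex IV, cytochrome c oxidase, 1 of 15 genes fell in ileum (median -0.13). It was Cox7a1, the isoform known from heart and skeletal muscle. Cox7a1 stood at 11.07, 10.73 and 10.83 in control jejunum, 11.00, 10.88 and 10.14 in mutant jejunum and 10.00, 9.27 and 9.12 in ileum. All ileum arrays lay below all jejunum arrays of either genotype, with mutant jejunum 3 nearest to them. The fall in ileum was -1.41 (SE 0.25, adjusted p = 0.00385), 2.66-fold lower on this scale and the largest difference among the brightest probe sets of the members.

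Cox7a2, the ubiquitous isoform of the same subunit, stood at 13.11 on all 3 control jejunum arrays, at 13.05, 13.09 and 13.13 in mutant jejunum and at 12.99, 12.89 and 12.89 in ileum. Its ileum arrays also lay below both jejunum groups, but the difference of -0.19 did not pass (adjusted p = 0.0903). Cox7a2l, which helps assemble supercomplexes, gave 0.07. The other muscle or testis isoforms had little signal: Cox6a2 lay between 5.20 and 5.84, Cox4i2 between 4.80 and 5.62, Cox6b2 between 6.37 and 7.22 and Cox8c between 6.34 and 6.96 over the 9 arrays, and none of them was called in any comparison.

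The common complex IV subunits differed little. Cox5b gave -0.20 (adjusted p = 0.0781), Cox6b1 -0.19 (0.0951), Cox4i1 -0.16 (0.161), Cox5a -0.13 (0.325), Cox6c -0.12 (0.326), Cox8a -0.10 (0.530) and Cox6a1 -0.01 (0.925). For 7 of them (Cox5b, Cox6b1, Cox7a2, Cox4i1, Cox5a, Cox6c and Cox8a) all 3 ileum arrays lay below the 3 control jejunum arrays. Among all genes with a mean level of at least 10, that share was 27.4%. With trimmed mean scaling the complex IV median was -0.02. The probe set of Cox7c is dim (5.95 to 6.77) and gave -0.15.

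In complex V, ATP synthase, 2 of 17 genes fell in ileum (median -0.13, or -0.01 with trimmed mean scaling). Atp5md, a small membrane subunit linked to dimers of the enzyme, stood at 12.53, 12.39 and 12.50 in control jejunum, 12.49, 12.52 and 12.28 in mutant jejunum and 12.13, 11.97 and 12.01 in ileum. The ileum arrays lay below all 6 jejunum arrays, and it fell by 0.43 (SE 0.09, adjusted p = 0.00978). Atp5h, the peripheral stalk subunit d, fell by 0.27 (adjusted p = 0.0394) and lost the call under 12 of 22 settings, among them without any 1 control array or without mutant jejunum 2.

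The catalytic and rotor genes of complex V gave small values. The alpha and beta subunits Atp5a1 and Atp5b gave -0.11 and -0.06, and the gamma and delta subunits of the central stalk, Atp5c1 and Atp5d, -0.14 and -0.13. The 3 genes for the same mature c-ring protein, Atp5g1, Atp5g2 and Atp5g3, gave 0.02, 0.03 and -0.06 (adjusted p = 0.912, 0.846 and 0.659). With no scaling between arrays Atp5g1 and Atp5g2 came out lower in ileum.

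**Figure D3:**
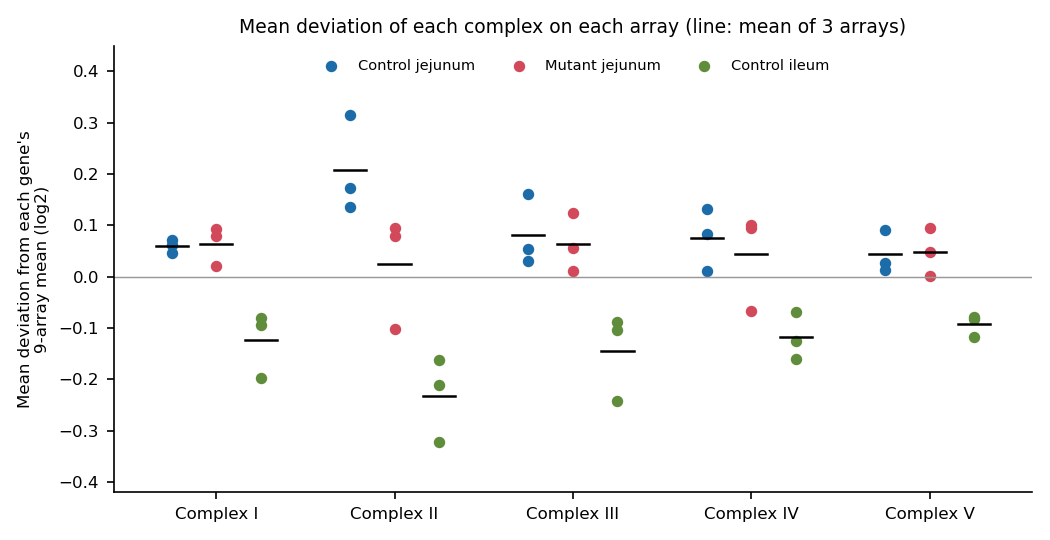
Mean deviation of the tested genes of each complex from each gene's own mean over 9 arrays (log2, vertical axis), 1 point per array and a line at the mean of 3. In each complex the 3 ileum points lie below 0 and below the 3 control jejunum points; complex II spans most, from 0.31 on control jejunum 1 to -0.32 on control ileum 2.

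Array by array, the mean deviation of all 87 genes from their own 9-array means was 0.07 ± 0.03 (SD, n = 3) in control jejunum, 0.06 ± 0.03 in the mutant and -0.12 ± 0.05 in ileum. Complex II gave 0.21 ± 0.09, 0.02 ± 0.11 and -0.23 ± 0.08 in the same order. Among its mutant arrays, replicate 3 stood at -0.10 and the others at 0.08 and 0.10. Split by the quartiles of the mean level over the 9 arrays, the members counted 3 falls of 22 below a level of 10.8, 4 of 21 up to 11.5, 6 of 22 up to 12.2 and 4 of 22 above it, with 11, 20, 19 and 22 values below 0.

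**Figure D4:**
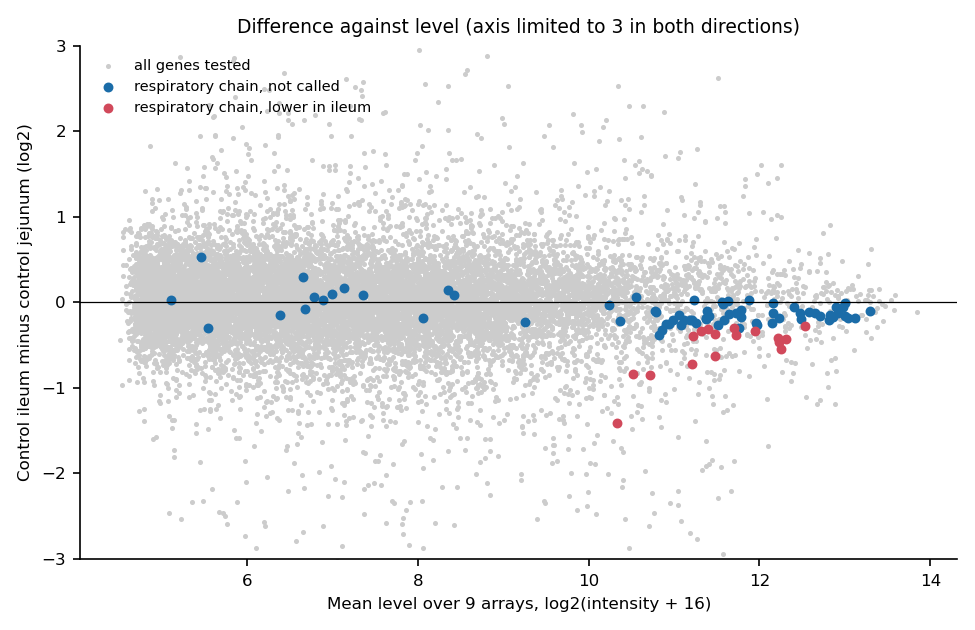
Difference between control ileum and control jejunum (log2) against mean level over the 9 arrays; grey points are all 13830 genes tested, blue points members that were not called and red points the 17 members that fell. Members cluster above a level of 10 and there lie mostly below 0, at 67 of 72.

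Counted by probe set, and beside 7.86% falls and 8.36% rises over all probe sets, 30 of the 169 tested fell in ileum and 0 rose. They covered 25 genes, of which 8 (Atp5k, Cox6a1, Ndufa7, Ndufb7, Ndufs7, Ndufv1, Ndufv2 and Sdha, named after their values were seen) were called only by a dimmer probe set than the one described. Ndufv2, a core subunit with an iron-sulfur cluster, differed most: its brightest probe set gave -0.13 (adjusted p = 0.335) and its other 2 gave -0.79 and -1.56 (adjusted p = 0.00154 and 0.00119). Which transcripts of the gene each probe set reads was not examined.

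Some cell type markers differed between segments. Of 10 smooth muscle genes, 8 rose in ileum (median 0.95), and their summed linear level was 8989 to 13166 in control jejunum, 7302 to 11085 in the mutant and 16951 to 21020 in ileum. Of 10 lymphoid and myeloid genes 4 fell in ileum, and of 9 epithelial genes 3 rose and 1 fell. The summed level of 6 fat genes, 205 to 290 in control jejunum, ran from 194 to 1820 over the mutant arrays and from 169 to 2969 over the ileum arrays, and none of the 3 bright enough to test was called. The part of these cell types in the differences of the respiratory chain was not tested. Of the 10 striated muscle markers 7 stayed too dim to test, and Acta1, the only one called, rose in mutant jejunum by 1.90 (adjusted p = 0.0105) and gave -0.45 in ileum.

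The comparison of mutant with control jejunum asks whether these genes differ with the Gata4 genotype of the mice, which differs outside the epithelium too. No member was called: 0 of 87 genes rose and 0 fell, and 0 of 169 probe sets passed, beside 3.56% of all probe sets (limma, 1.74% rose and 1.82% fell). Among all genes with a mean level of at least 10, as for 72 of the members, 5.15% rose and 4.63% fell. At an unadjusted p under 0.05, 2 members were higher and 4 lower, and the share over all genes was not taken there. The 95% interval of the difference lay within 0.5 log2 units of 0 for 70 genes and within 1 for all 87, so larger changes of single genes lie outside these intervals. The median was -0.02, beside 0.00 over all features, and its sign turned with other scaling (0.048 with none, 0.095 with arrays centred on their medians and 0.0071 with trimmed means). Mutant arrays lay wholly above control jejunum for 6 genes and wholly below for 9, beside 12.2% and 12.8% of all genes.

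Among genes whose mutant and control jejunum arrays did not overlap, the lowest values in the mutant belonged to genes already described. Ndufb3 gave -0.41 (95% interval -0.78 to -0.04, adjusted p = 0.240) and Ndufa5 -0.38 (-0.59 to -0.16, adjusted p = 0.0616). Ndufa5 passed with a filter at the 60th percentile (adjusted p = 0.0443) or with array weights (0.0374), which gave mutant jejunum 3 a weight of 0.384. Sdhd gave -0.26 (adjusted p = 0.284), Uqcrc1 -0.21 (0.251) and Ndufa1 -0.18 (0.320), while Sdhc (-0.22) and Cox7c (-0.21) gave values as low with overlapping arrays.

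All 4 complex II genes had values below 0 in the mutant, with a median of -0.19 that none of their tests carried (adjusted p from 0.284 to 0.678); with arrays centred on their medians, Sdhb turned to 0.02. Among genes with arrays apart, the highest values were 0.39 for Ndufb1 (adjusted p = 0.366), 0.32 for Ndufs4 (0.218), 0.25 for Ndufs8 (0.398), 0.22 for Atp5o, the stalk subunit that confers oligomycin sensitivity (0.281), and 0.15 for Uqcrq of complex III (0.533). Of the genes whose arrays overlapped, the assembly factor Ndufaf2 gave 0.36 (adjusted p = 0.326). Cox7a1 gave -0.21 (95% interval -0.77 to 0.36, adjusted p = 0.747), and 0.06 without mutant jejunum 3.

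The 2 comparisons share the control jejunum arrays, and the 17 genes that fell in ileum were chosen by their difference between the control segments. That choice by itself favours mutant values between the segments and above ileum, so the values of these genes are given side by side only. In the mutant these genes had a median of -0.11, with a range from -0.41 (Ndufb3) to 0.06 (Ndufb8). Their mutant mean lay between the means of the control segments for 15 genes and above the ileum mean for 17. Mutant arrays did not overlap ileum arrays for 15 and did not overlap control jejunum arrays for 8. Over all genes, called or not, mutant arrays lay wholly above the ileum arrays for 10.8% and wholly below for 11.8%. Against control jejunum these shares were 12.2% and 12.8%. No share was taken over all genes that fell in ileum.

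Set directly against control ileum, mutant jejunum had 3 members higher and 0 lower, beside 1.39% and 1.27% of all probe sets. All 3 are among the 72 bright members (4.17%), beside 5.96% rises and 2.72% falls among all genes that bright, so the share of rises was not above that background. Cox7a1 was higher by 1.21 (SE 0.25, adjusted p = 0.0338), Ndufb9 by 0.38 (adjusted p = 0.0383) and Ndufb8 by 0.35 (adjusted p = 0.0466). The largest others with arrays apart were Ndufs5 at 0.74 (adjusted p = 0.176), Uqcrq at 0.45 (0.0515), Sdhb at 0.44 (0.0594), Atp5md at 0.39 (0.0526) and Uqcr10 at 0.39 (0.0937). The lowest with arrays apart were Ndufaf3 at -0.13 and Cox7a2l at -0.11, neither called. The median over the members was 0.16. Mutant arrays lay wholly above the ileum arrays for 35 members and wholly below for 2, beside 10.8% and 11.8% of all genes. The count was 7 without mutant jejunum 3, 1 without control jejunum 1 or control ileum 1, and 0 without any other single array, when the call of Cox7a1 was lost too (highest adjusted p = 0.126).

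Other genes of mitochondrial energy metabolism came from lists chosen by function. The 13 subunits encoded in mitochondrial DNA were not analysed here, since the named probe sets do not include them. In mutant jejunum 2 of 156 tested genes of the lists were called (1.28%), below the background of 2.1% rises and 2.29% falls over all genes, so the count is no result about the lists. Sco2, a copper chaperone for complex IV assembly, stood at 9.99, 10.37 and 9.71 in control jejunum, 8.91, 8.26 and 8.35 in mutant jejunum and 8.20, 7.82 and 7.71 in ileum. It fell by 1.52 in the mutant (adjusted p = 0.00313) and by 2.11 in ileum (adjusted p = 0.000106), with control jejunum above all other arrays. Slc25a4, an ADP/ATP exchanger, read 9.17, 9.35 and 9.16 in control jejunum, 10.34, 10.32 and 9.84 in the mutant and 10.70, 10.67 and 10.05 in ileum, with control jejunum below all other arrays, and rose by 0.94 in the mutant (adjusted p = 0.0216) and by 1.25 in ileum (adjusted p = 0.00133).

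In ileum, 21 of the 156 list genes fell and 5 rose (16.7% called), beside 9.12% falls and 8.79% rises over all genes. The share called in either direction was near that background, so the counts by list are given as values only. Of 16 electron carriers and feeders of the chain, 5 fell and 1 rose in ileum (median -0.20). Coq4, needed for ubiquinone synthesis, fell by 0.99, and Etfdh, which passes electrons from fatty acid oxidation to ubiquinone, by 0.78. Cyc1, the cytochrome c1 subunit of complex III that the symbol rule leaves out, fell by 0.28 (adjusted p = 0.0445). Cycs, cytochrome c itself, gave -0.14 (adjusted p = 0.394), and Coq2, also of ubiquinone synthesis, rose by 0.47.

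Of 29 assembly factors outside the rule 5 fell and 0 rose in ileum (median -0.07), with Lrpprc, which stabilizes mitochondrial mRNA, at -0.75 next to Sco2. Of 13 tricarboxylic acid cycle genes 4 fell and 1 rose (median -0.17): Mdh2, malate dehydrogenase, fell by 0.83 and Ogdh by 0.65, while Suclg2 rose by 0.52. Of 14 regulators of mitochondrial biogenesis 2 fell and 1 rose. Ppargc1a (PGC-1 alpha) stood at 8.52, 8.95 and 8.14 in control jejunum, 7.75, 7.88 and 6.57 in mutant jejunum and 7.77, 7.44 and 6.98 in ileum; it fell by 1.14 in ileum (adjusted p = 0.0418) and gave -1.13 in the mutant without passing (adjusted p = 0.100). Ppargc1b fell by 0.95 in ileum (adjusted p = 0.00112) and gave -0.33 in the mutant, and Yy1 rose by 0.38 in ileum (adjusted p = 0.0422). Of 76 mitochondrial ribosomal protein genes 5 fell and 1 rose in ileum, with a median of 0.02, beside -0.18 for the respiratory chain members.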

How the data were processed

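Total RNA of 9 tissue samples was hybridized to Affymetrix whole-genome mouse arrays. The authors deposited 1 linear intensity per probe set and array, made with GCOS per the submitters' processing notes; the scaling target and background settings were not given in the sources used here. Samples were grouped by their titles, and the design text gives 3 mice per group.

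The table holds 45101 probe sets; the 64 that are array controls were dropped. Values were log2(intensity + 16), quantile-normalized, and probe sets above the 40th percentile (a level of 4.95) on at least 3 arrays were kept (29307). limma 3.58.1 in R 4.3.3 (lmFit, eBayes with intensity trend) was fitted over all 9 arrays, two-sided, and p-values were adjusted by Benjamini-Hochberg over all probe sets kept; the call threshold was 0.05. Each gene is described by its probe set with the highest mean level. The fit was tested on simulated data. The arrays' number limits precision.

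Gene names come from GEO's platform annotation; all 90 member genes matched the RefSeq table. Promoter windows come from RefSeq (GRCm38.p6). Protein sequences were not used here.

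Genes named were the 10 largest falls and rises among called members per comparison, up to 5 further members per direction with groups apart where fewer than 5 were called, isoforms of tissue-restricted subunits, the Sdh genes, and up to 5 called genes per list; others named are marked as such. Members and lists were chosen with earlier results of these data known. Same-numbered arrays of different groups correlated in their deviations at -0.07 to 0.17. Differently numbered arrays were not set beside them, so these values cannot decide whether the numbers mark a pairing or batch. The main fit used none. Alternatives covered scaling, pseudocount, filter, trend, array weights, the groups fitted, replicate block, probe set choice and each array left out.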

Additional observations from a re-analysis of the deposited data

How the results depend on the processing

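Each group had 3 arrays, and the ileum arrays were dimmer. Ileum against control jejunum: the members that fell numbered 75 with no scaling between arrays, 26 with arrays centred on their medians, 10 with no filter and 8 with no intensity trend, and 8 to 19 over the arrays left out; the median was -0.67 and -0.31 under the first 2 and -0.19 to -0.15 over the arrays left out. Mutant against ileum: members higher in the mutant numbered 78 and 27 with the same 2 scalings, 16 with array weights, 6 with the 60th percentile filter or any probe set of the gene, 0 with no filter, no trend or the 2 groups alone, and 0 to 7 over the arrays left out. Mutant against control jejunum: 1 gene (Ndufa5) fell with the 60th percentile filter and with array weights, and the median was 0.048 with no scaling and 0.095 with centred arrays (-0.04 to -0.01 over the arrays left out). With the replicate block, 13 members fell in ileum, 1 was higher in the mutant than in ileum, and 0 differed between mutant and control jejunum. With no scaling the sign turned with a call for Cox7a2l (-0.51), Atp5g1 (-0.52) and Atp5g2 (-0.51) in ileum and for Cox7a2l between mutant and ileum (0.52). Of 1380 values of single genes, 1247 kept direction and call or moved by less than 1 SD, 60 lost a call, 33 gained one, 36 moved further and 4 reversed. The cause was not tested.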
